A study of Mus musculus with 6 samples.

Results

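The p53 family of transcription factors has 3 genes in the mouse, Trp63, Trp73 and Trp53, which encode p63, p73 and p53. They were chosen by name, and all 3 are among the 23284 gene symbols of the count table and among the 13849 that had enough counts to be tested. RNA was sequenced from esophageal epithelium of mouse embryos at E12.5, in 3 libraries labelled p63KO, which are homozygous for a Trp63-CreERT2 allele, and in 3 libraries of littermate controls, titled wild type. A CreERT2 allele carries the coding sequence of a tamoxifen-inducible recombinase. Neither the design of the allele nor whether the controls carry 1 copy of it is given in the sources used here, and the same holds for whether a library is 1 embryo or a pool, so p-values reflect only how far these samples scatter, which may be technical. The comparison asks what the loss of p63 did to the RNA of the gene itself and of its paralogs, and to the genes that act on the family or answer to it.

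Members of the family bind DNA through a closely related central domain and act as tetramers, so they can recognise similar response elements. p63 is the factor of basal cells in stratified epithelia, where its short form without the first transactivation domain (ΔNp63) is the usual product, and embryos without it do not form a normal skin or esophageal lining. p73 is known from multiciliated cells and from Cajal-Retzius neurons, and p53 is the broadly expressed stress factor, held low in resting cells by degradation of the protein through Mdm2.

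The DNA-binding domain is the most conserved part of the family, and a stretch of it shows whether reads of one member could be counted for another. In the GENCODE coding sequences of GRCm38, the 100 bases that Trp63 and Trp73 share best are given here 5′ to 3′, with the aligned stretch of Trp53, and capitals mark bases that differ from Trp63.
Trp63: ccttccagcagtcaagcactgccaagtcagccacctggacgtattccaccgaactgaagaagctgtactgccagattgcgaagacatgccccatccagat
Trp73: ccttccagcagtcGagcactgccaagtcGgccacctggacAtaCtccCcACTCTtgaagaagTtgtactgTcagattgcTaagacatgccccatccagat
Trp53: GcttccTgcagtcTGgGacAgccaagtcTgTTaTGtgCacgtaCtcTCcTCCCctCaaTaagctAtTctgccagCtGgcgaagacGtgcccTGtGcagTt
The Trp63 bases are positions 539 to 638 of its coding sequence (Trp63-208), those of Trp73 are 386 to 485 (Trp73-204) and those of Trp53 are 326 to 425 (Trp53-203). Trp73 differed from Trp63 at 13 of these 100 bases and Trp53 at 30. No 100-base stretch of the coding sequences brought Trp63 and Trp73 closer than 13 mismatches, Trp63 and Trp53 closer than 25, or Trp73 and Trp53 closer than 24. The longest run of identical bases was 23 for Trp63 and Trp73, 14 for Trp63 and Trp53, and 13 for Trp73 and Trp53, against reads of 100 bases. RefSeq also lists a Trp53 pseudogene, which was not analysed here, so some Trp53 reads may be uncertain. Counts per gene do not separate the long and short isoforms of Trp63 or Trp73.

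Promoter sequences show where the family's own binding motif stands at these genes. The motif searched was the p53 half-site decamer, a consensus that equals its own reverse complement, so that a match on one strand is a match on both. The windows are RefSeq's on GRCm38.p6, from 250 bases before to 50 after each gene's start, printed on the gene's strand with each match in capitals. No window was available for Trp63, so its promoter was not searched. The Trp53 window, chr11:69580109-69580408 on the plus strand, held 1 match that began 75 bases before the start.
Trp53: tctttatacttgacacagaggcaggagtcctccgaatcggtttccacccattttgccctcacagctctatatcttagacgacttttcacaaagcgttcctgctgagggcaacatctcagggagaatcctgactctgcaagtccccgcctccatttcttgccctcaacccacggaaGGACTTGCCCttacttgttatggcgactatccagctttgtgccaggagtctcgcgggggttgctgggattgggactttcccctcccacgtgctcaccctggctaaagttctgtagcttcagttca
The same bases lie in the window of Wrap53, the gene on the opposite strand whose transcript overlaps Trp53 head to head, at chr11:69580201-69580500. Both Trp73 windows, chr4:154097124-154097423 and chr4:154139826-154140125 on the minus strand, held no match. Among the targets described later, Cdkn1a (chr17:29090729-29091028, plus strand) held 2 matches, which began 73 and 51 bases before its start, Sesn1 (chr10:41887189-41887488, plus strand) held 1 that began 173 bases before, and Krt5 (chr15:101712856-101713155, minus strand) held 1 that began 95 bases before. They are shown because Cdkn1a rose, Sesn1 fell and Krt5 fell to a low level in p63KO.
Cdkn1a: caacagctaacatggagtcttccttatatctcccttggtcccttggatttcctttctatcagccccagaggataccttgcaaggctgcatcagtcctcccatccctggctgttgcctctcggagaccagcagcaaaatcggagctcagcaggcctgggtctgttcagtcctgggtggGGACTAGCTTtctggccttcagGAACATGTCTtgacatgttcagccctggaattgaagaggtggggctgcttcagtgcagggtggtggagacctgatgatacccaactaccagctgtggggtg
Sesn1: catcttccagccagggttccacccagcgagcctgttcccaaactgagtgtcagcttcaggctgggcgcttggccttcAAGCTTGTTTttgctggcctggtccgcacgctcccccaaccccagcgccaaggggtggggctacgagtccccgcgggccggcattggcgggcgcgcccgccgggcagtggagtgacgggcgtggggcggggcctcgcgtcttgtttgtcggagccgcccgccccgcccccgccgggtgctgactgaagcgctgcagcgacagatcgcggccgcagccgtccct
Krt5: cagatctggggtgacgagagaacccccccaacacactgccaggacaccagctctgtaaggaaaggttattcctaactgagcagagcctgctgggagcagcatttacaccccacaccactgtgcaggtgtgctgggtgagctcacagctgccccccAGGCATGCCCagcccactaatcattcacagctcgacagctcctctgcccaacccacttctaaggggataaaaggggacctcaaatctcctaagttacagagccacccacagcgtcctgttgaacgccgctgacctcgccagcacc
A match was found in 2745 of 32851 promoter windows (8.36%), or in 2582 of 27025 symbols (9.55%). A match of these letters is a description and not a bound site, and a window without one says only that the letters are not in those bases.

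Trp63, the targeted gene, was 583.9, 674.1 and 550.6 CPM (read counts put on a common scale of library size) in control replicates 1, 2 and 3, from 10873, 13198 and 9351 counts. In p63KO it was 76.7, 62.2 and 75.4 CPM, from 1299, 898 and 1016 counts. Every p63KO library lay far below every control library, so each library matched its label. The mean was 602.9 ± 63.9 CPM in controls against 71.4 ± 8.03 CPM in p63KO (SD, n = 3 each). Trp63 fell, with a log2 fold change of -3.08 (SE 0.11, 95% interval -3.32 to -2.83, adjusted p = 1.7e-07 in the edgeR quasi-likelihood test), which left 11.8% of the control level. In control it ranked 134 among the 13849 tested genes by CPM, and 149 tested genes fell further. Where in the gene the remaining reads lie was not analysed here, so whether they come from a changed transcript was not tested.

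Trp53 was the other member with a difference beyond the spread between libraries. It was 155.2, 155.7 and 149.5 CPM in control and 127.1, 119.3 and 123.0 CPM in p63KO, from 2890, 3049 and 2539 counts and from 2153, 1723 and 1656 counts. The lowest control library lay above the highest p63KO library. The mean was 153.5 ± 3.46 CPM in controls against 123.1 ± 3.87 CPM in p63KO (SD, n = 3 each), or 80.2% of control. Trp53 fell, with a log2 fold change of -0.32 (SE 0.06, 95% interval -0.45 to -0.19, edgeR adjusted p = 0.00255). It passed in each of the 14 alternative fits, with log2 fold changes between -0.34 and -0.27. The change was small for this dataset, since the median absolute log2 fold change of the 4098 called genes was 0.73 and 685 of them changed less than Trp53 did.

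Trp73 had few reads. It had 19, 40 and 38 counts in control and 36, 9 and 21 counts in p63KO, that is 1.02, 2.04 and 2.24 CPM against 2.12, 0.62 and 1.56 CPM. The groups overlapped, with p63KO replicate 1 above 2 control libraries and control replicate 1 below 2 p63KO libraries. All libraries lay above the level of 3 counts, which was 0.153 to 0.223 CPM. The mean was 1.77 ± 0.65 CPM in controls against 1.44 ± 0.76 CPM in p63KO (SD, n = 3 each), with a log2 fold change of -0.28 (SE 0.46, edgeR adjusted p = 0.701). The 95% interval ran from -1.33 to 0.77, so at this depth a fall of 2-fold and a smaller rise both lay within it. No rise of Trp73 to the level of Trp63 or Trp53 was measured in any library. Its sign rested on single libraries, with -0.70 without p63KO replicate 1 and 0.09 without p63KO replicate 2.

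Read together, 2 of the 3 members were called changed, both lower in p63KO. Of all tested genes, 29.6% were called changed in either direction, 14.3% were lower and 15.3% were higher. The groups did not overlap, with p63KO lower, for 2 of the 3 members and for 22.2% of tested genes. The median log2 fold change of all tested genes was -0.01.

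**Figure D1:**
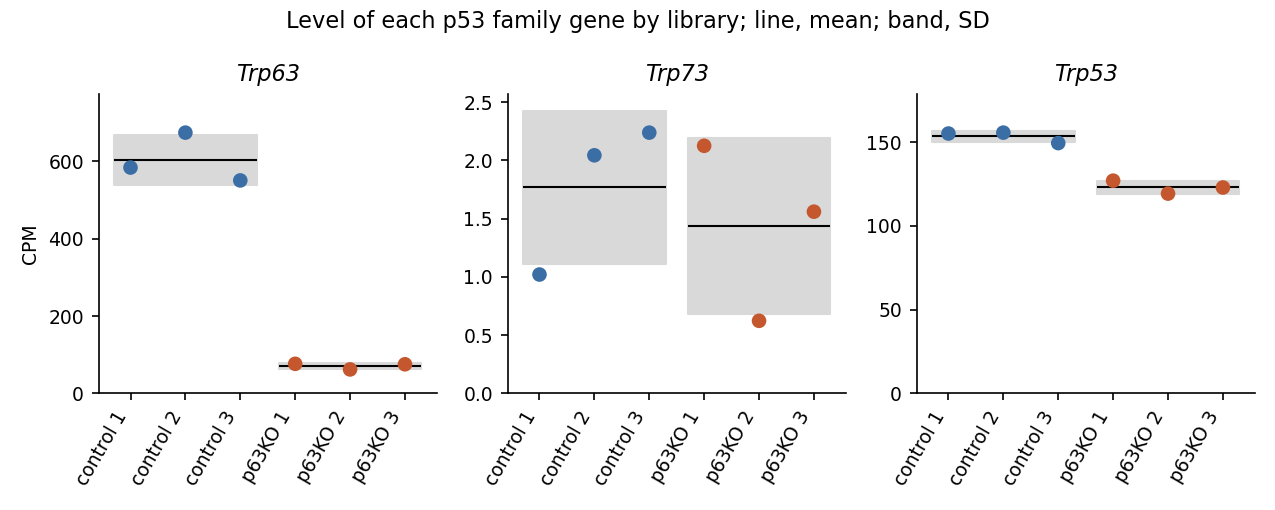
Level of Trp63, Trp73 and Trp53 in CPM in each of the 6 libraries, 1 panel a gene, each on its own linear axis from 0. Points are libraries, lines are group means and bands are 1 SD. Trp63 stood at 550.6 to 674.1 CPM in control and 62.2 to 76.7 CPM in p63KO, Trp73 overlapped between groups, and Trp53 was 149.5 to 155.7 CPM against 119.3 to 127.1 CPM.

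The make-up of the family's reads differed between the groups. Summed over the members, the level was 740.1, 831.9 and 702.3 CPM in control and 205.8, 182.2 and 199.98 CPM in p63KO. Trp63 made up 79.4 ± 1.40% of the family's counts in control and 36.4 ± 1.94% in p63KO, while Trp53 made up 20.3 ± 1.40% and 62.9 ± 2.26% (SD, n = 3 each). Trp73 made up 0.234 ± 0.091% and 0.718 ± 0.349%. A larger share of Trp53 was thus measured beside a lower level of Trp53, since the sum fell more.

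Levels of different genes can be set side by side only per length. On the scale of CPM per kb of the longest protein-coding transcript (5366, 5042 and 1867 bases for Trp63, Trp73 and Trp53), control held 112.4 ± 11.9 for Trp63, 82.2 ± 1.85 for Trp53 and 0.350 ± 0.130 for Trp73. In p63KO the order was Trp53 at 65.9 ± 2.07, Trp63 at 13.3 ± 1.5 and Trp73 at 0.285 ± 0.150 CPM per kb. Neighbours in each order were separated by more than their SDs. The order was the same with the exon union or the coding length, though with these the control level of Trp63 moved to 71.8 and 295.5 CPM per kb and that of Trp53 to 37.9 and 131.2 CPM per kb. Which isoform was expressed sets the right length, and it was not measured.

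Ratios of 2 members within a library need no scaling between libraries. The log2 ratio of Trp63 to Trp53 counts was 1.91, 2.11 and 1.88 in control and -0.73, -0.94 and -0.70 in p63KO, a difference of -2.76. That of Trp63 to Trp73 was 9.12, 8.35 and 7.92 in control and 5.15, 6.56 and 5.56 in p63KO, a difference of -2.71. Neither set of ratios overlapped between groups, and each exact permutation test (two-sided) gave p = 0.1, the smallest that 3 against 3 libraries allow, or 0.15 after adjustment over the 3 ratios. The log2 ratio of Trp73 to Trp53 was -7.21, -6.23 and -6.04 in control and -5.88, -7.50 and -6.27 in p63KO, a difference of -0.05 (exact permutation p = 0.9).

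**Figure D2:**
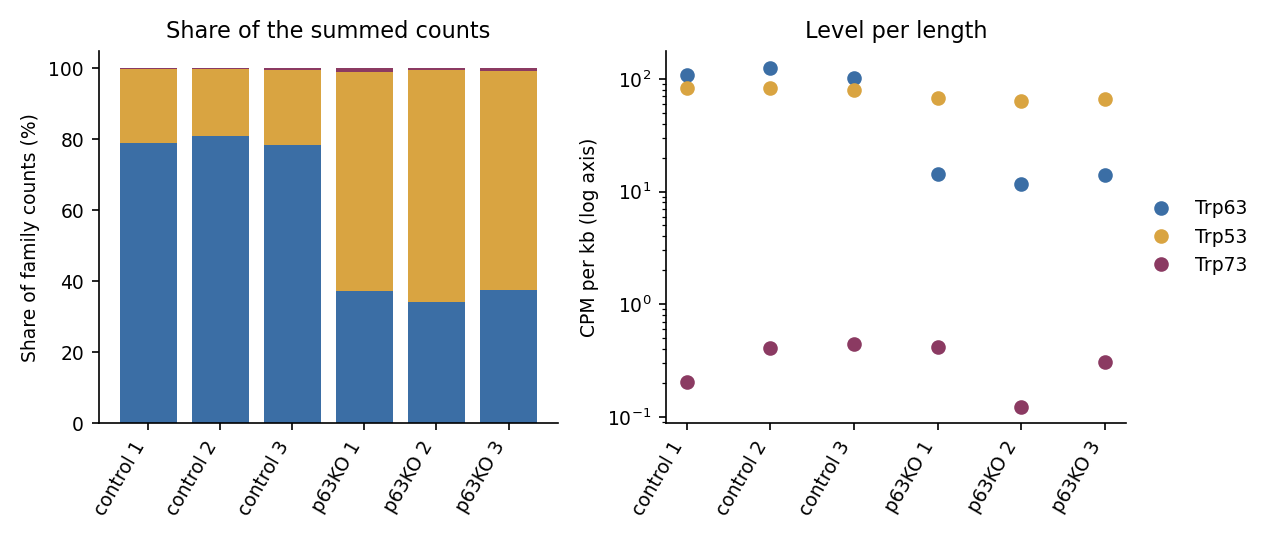
Left, share in percent of the 3 members in their summed counts in each library, as stacked bars from 0. Right, CPM per kb of the longest protein-coding transcript on a log axis, 1 point a library. Trp63 held 79.4% of the counts in control on average and 36.4% in p63KO, and Trp53 passed it in all 3 p63KO libraries on both scales.

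Tested genes were ranked by how near they lay to each member over the 6 libraries. Likeness was the Euclidean distance between log2 CPM values, each taken relative to the gene's control mean, among tested genes with a mean of at least 10 CPM. Nearest to Trp63 were Ntf5 (distance 0.309), Arhgap23 (0.340) and Itgb4 (0.420). Ntf5, which encodes a neurotrophin, was 45.9 ± 4.09 CPM in controls against 5.02 ± 0.543 CPM in p63KO. Arhgap23 was 132.6 ± 13.5 CPM in controls against 17.2 ± 0.784 CPM in p63KO, and Itgb4, the integrin subunit of hemidesmosomes, was 315.3 ± 57.0 CPM in controls against 37.0 ± 5.78 CPM in p63KO. Their log2 fold changes were -3.20 (SE 0.12), -2.95 (SE 0.09) and -3.09 (SE 0.15). Among the controls, Trp63, Ntf5 and Arhgap23 were highest in replicate 2, and Itgb4 was highest in replicate 1. Nearest to Trp53 were Arfrp1 (0.042), Gltscr2 (0.052) and Gins4 (0.069), with log2 fold changes of -0.31 (SE 0.07), -0.33 (SE 0.06) and -0.32 (SE 0.07). Arfrp1, a small GTPase gene, was 62.2 ± 2.15 CPM in controls against 50.1 ± 2.17 CPM in p63KO. For Trp73 the closest were Steap2 (1.04), Ankrd44 (1.14) and Nr4a1 (1.16), none of them called changed. The distance includes the shift between groups, so a fold change like the member's follows from how these genes were picked and is no separate result. Distances also depend on the size of a gene's spread and are a description of these libraries.

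**Figure D3:**
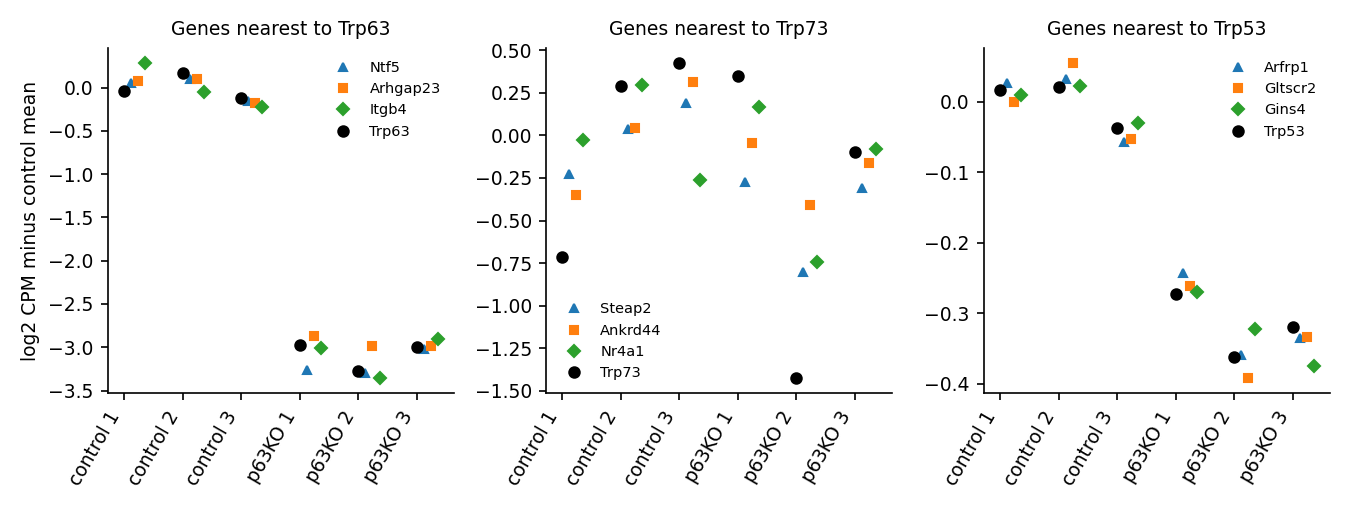
Log2 CPM minus the control mean in the 6 libraries for each member (black circles) and its 3 nearest genes (coloured symbols, shifted sideways so that they do not hide each other). Each panel has its own axis. The genes nearest to Trp63 and Trp53 were lower in all p63KO libraries, which the distance itself selects for. Those nearest to Trp73 lay at distances of 1.04 to 1.16.

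The libraries were checked for markers of other cells. In bulk RNA, fewer cells of a type and less RNA per cell cannot be told apart. Over all tested genes 15.3% rose and 14.3% fell, and the marker counts stand beside these shares. Of 10 epithelial markers 4 rose (Krt8, Krt18, Krt19 and Cldn6), 3 fell (Krt5, Cdh1 and Grhl2) and 3 did not pass, so that a sum of 4752 to 4933 CPM in control and 4840 to 4917 CPM in p63KO held members that moved both ways. Of 10 mesenchymal markers 3 rose (Dcn, Twist1 and Tbx18) and 5 fell, and their sum was 453.2 to 537.5 CPM in control and 1311 to 1713 CPM in p63KO. Without Dcn, which was 113.5 to 211.1 CPM in control and 1053 to 1342 CPM in p63KO, the sum was 242.2 to 386.1 CPM and 209.2 to 370.2 CPM. With control replicate 1 left out 1 mesenchymal marker fell, with p63KO replicate 3 left out 2 did, and 3 did when control replicate 3 or p63KO replicate 2 was left out. All 9 neuroendocrine markers rose, from a sum of 2.66 to 7.36 CPM to one of 413.1 to 527.8 CPM. Enteric neuron and crest markers summed to 21.2 to 39.3 CPM in control and 211.3 to 277.1 CPM in p63KO, with 4 of 9 higher (Ret, Elavl4, Tubb3 and Stmn2) and 1 lower (Ednrb), which was not called without control replicate 1, control replicate 3 or p63KO replicate 3. Muscle markers summed to 67.4 to 150.4 CPM in control and 26.2 to 48.3 CPM in p63KO. Of 4 tested 3 fell, but 1 when control replicate 1, p63KO replicate 1 or p63KO replicate 3 was left out. Ciliated cell markers summed to 17.4 to 34.2 CPM in control and 40.4 to 53.2 CPM in p63KO. Of 4 tested 1 rose, or 2 of 5 when any control library or p63KO replicate 2 was left out. The 1 that rose in the main fit was Tekt2, at 9.65 ± 3.03 CPM in controls against 32.0 ± 4.45 CPM in p63KO. The higher sum rested on Tekt2, and Foxj1, Tekt1 and Ccdc39 did not pass. Endothelial and blood markers reached at most 7.43 and 39.0 CPM in any library, with no tested member called, and Hba-a1 and Hba-a2 had no count. The blood markers were highest in control replicate 3, and without it 2 of the 3 tested, Hbb-y and Hba-x, rose. Their part in the changes of the family and of the genes below was not tested.

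Genes that act on the family's proteins were called about as often as all tested genes, 15 of 53 over 3 lists (28.3%) beside 29.6%. Among 15 tested ubiquitin ligases and deubiquitinases of p53, p63 or p73, none rose, 1 fell and 14 did not pass, with a median log2 fold change of 0.00 beside -0.01 over all tested genes. Without p63KO replicate 1, 2 of them rose, Mdm2 and Ube3a. Mdm2, the ligase that degrades p53 and is itself a p53 target, was 75.9 ± 1.19 CPM in controls against 83.2 ± 8.24 CPM in p63KO, a log2 difference of 0.13 (SE 0.08) that did not pass (edgeR adjusted p = 0.257). In the fit without p63KO replicate 1, the lowest of its group for Mdm2, the log2 fold change was 0.21 (SE 0.06) and passed (edgeR adjusted p = 0.0476). Its relative Mdm4 was 118.2 ± 14.1 CPM in controls against 104.2 ± 14.3 CPM in p63KO (edgeR adjusted p = 0.283). Itch, the ligase of p63 and p73, was 122.7, 147.6 and 124.1 CPM in the controls against 121.0, 142.5 and 131.1 CPM in p63KO, so the groups overlapped and the log2 difference was 0.00 (SE 0.09). Nedd4l, an Itch relative, was the 1 that fell, at 141.7 ± 8.65 CPM in controls against 94.2 ± 2.32 CPM in p63KO, a log2 fold change of -0.59 (SE 0.07). Nedd4, the most abundant of the list, was 3076 ± 63.5 CPM in controls against 3155 ± 146.4 CPM in p63KO and did not pass.

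Kinases, acetylases and other modifiers moved little where they moved. Of 19 tested, 1 rose, 5 fell and 13 did not pass, with a median log2 fold change of -0.07. The share called, 31.6%, was near the 29.6% of all tested genes. Abl1, the tyrosine kinase that acts on p73, was 287.1 ± 9.16 CPM in controls against 237.7 ± 6.71 CPM in p63KO, a log2 fold change of -0.27 (SE 0.06). Chek2, the checkpoint kinase of p53, changed by -0.50 (SE 0.14) on the log2 scale, and Prkdc, Myst1 (the acetylase Kat8) and Smyd2 by -0.34 (SE 0.09), -0.42 (SE 0.09) and -0.32 (SE 0.09). Pias1, a SUMO ligase, was the member that rose, by 0.30 (SE 0.08) on the log2 scale. Of these 6 calls, 4 were lost when 1 or another library was left out. The number that fell dropped to 2 when control replicate 2 was left out, and to 3 when control replicate 3, or replicate 1 or 3 of p63KO, was. Abl1 and Myst1 passed in all 6 fits that left out 1 library, Prkdc in 5, Chek2 and Pias1 in 2 each and Smyd2 in 1.

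The list of binding partners, which also holds genes linked to the family in other ways, such as Trp53inp2, held the largest changes among the regulators. Of 19 tested of 21 listed, 3 rose, 5 fell and 11 did not pass, and the median log2 fold change was 0.01. The share called was 42.1%, beside 29.6% of all tested genes. Zfp385a, which encodes a zinc finger partner of p53, was 90.4, 120.7 and 87.2 CPM in the controls against 24.0, 22.8 and 17.8 CPM in p63KO. Every p63KO library was below every control library, with a log2 fold change of -2.20 (SE 0.15) (edgeR adjusted p = 6.9e-06). Ppp1r13l, which encodes the inhibitory partner iASPP, was 92.9, 91.4 and 77.0 CPM in the controls against 46.6, 40.6 and 39.4 CPM in p63KO, again with no overlap, and fell by 1.04 (SE 0.10) on the log2 scale. Its relative Ppp1r13b (ASPP1) fell by 0.36 (SE 0.08), and Trp53bp2 (ASPP2) did not pass. Yap1, a coactivator that also binds p73, was 554.3 ± 37.0 CPM in controls against 340.2 ± 14.3 CPM in p63KO, a log2 fold change of -0.70 (SE 0.07). Trp53inp2, an autophagy gene named for its likeness to a p53-induced gene, was higher in p63KO, at 50.6 ± 3.88 CPM in controls against 168.8 ± 19.2 CPM in p63KO, and Twist1, a mesenchymal factor that binds p53, rose by 1.33 (SE 0.28) on the log2 scale. Twist1 is also 1 of the 3 mesenchymal markers that rose. Trp53bp1 fell by 0.23 (SE 0.06) but passed in 2 of the 6 fits that left out 1 library, while Pml rose by 0.44 (SE 0.10) and passed in all 6. Cdkn2a, whose Arf product restrains Mdm2, reached at most 0.353 CPM and was not tested.

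**Figure D4:**
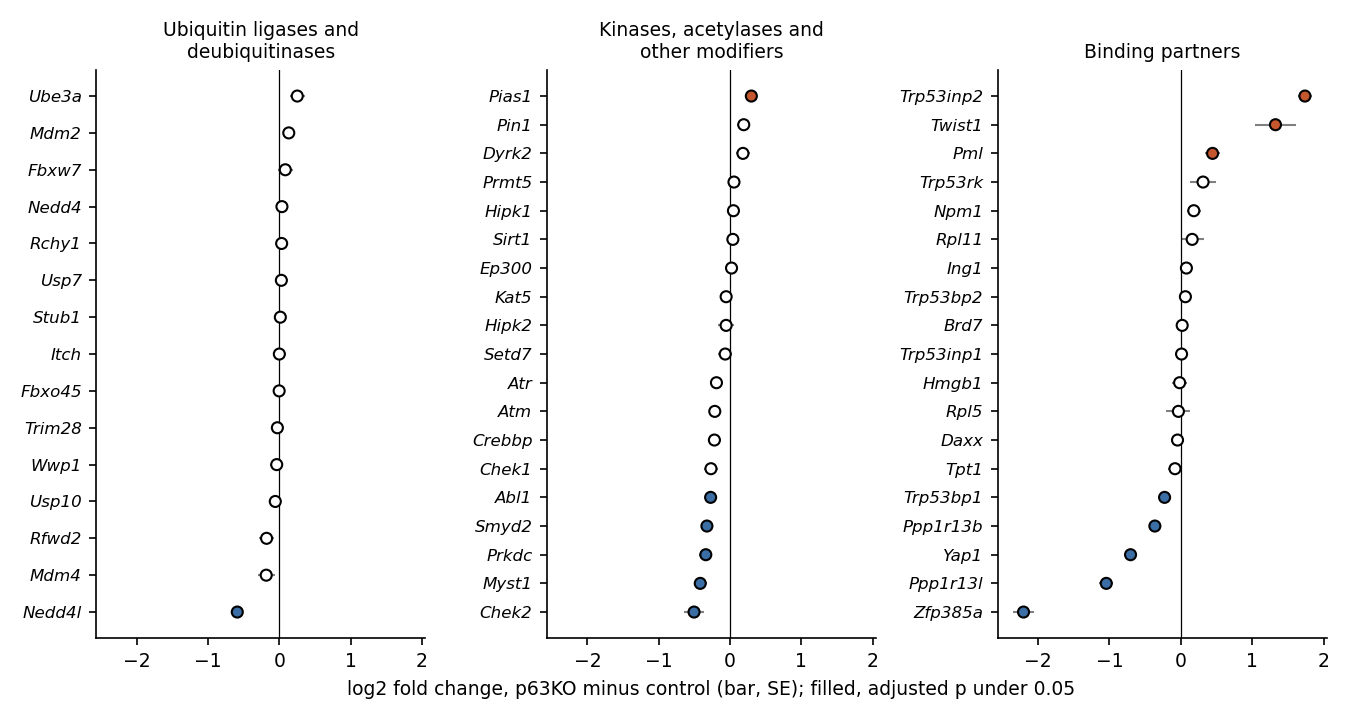
Log2 fold change, p63KO minus control, of each tested regulator in 3 lists (ligases, modifiers, partners). Points are the edgeR estimates, bars their SE, and filled points have an adjusted p under 0.05. Of the ligases 1 of 15 passed, of the modifiers 6 of 19 and of the partners 8 of 19, with Zfp385a lowest and Trp53inp2 highest. Over all tested genes 29.6% passed.

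Targets that p53 shares with its relatives did not move one way. In the cell cycle and growth list 23 of 25 genes were tested, of which 7 rose, 5 fell and 11 did not pass, with a median log2 fold change of 0.22. The shares were 30.4% higher and 21.7% lower, beside 15.3% and 14.3% of all tested genes. Without control replicate 3 or p63KO replicate 2, 5 rose. Cdkn1a, which encodes the CDK inhibitor p21 and has 2 half-sites in the window shown, was 57.1, 54.6 and 46.7 CPM in the controls against 61.8, 73.4 and 65.3 CPM in p63KO. The groups did not overlap, and it rose by 0.34 (SE 0.10) on the log2 scale (edgeR adjusted p = 0.0260). That call passed in 3 of the 6 fits that left out 1 library, and the estimate stayed between 0.26 and 0.40. Sesn1, a stress-induced inhibitor of mTORC1, was 70.4, 90.5 and 86.9 CPM in the controls against 25.3, 24.8 and 26.4 CPM in p63KO and fell by 1.70 (SE 0.10). Sfn, the epithelial 14-3-3σ, was 331.1, 354.7 and 284.0 CPM in the controls against 14.5, 13 and 14.2 CPM in p63KO, so little of it was left in any p63KO library. Its log2 fold change was -4.54 (SE 0.10). Among those that rose, Btg2, an antiproliferative gene, was 133.4 ± 16.4 CPM in controls against 413.9 ± 30.8 CPM in p63KO. Plk3, a stress kinase, was 4.02 ± 0.103 CPM in controls against 32.7 ± 1.38 CPM in p63KO, and Thbs1, the matrix protein thrombospondin 1, was 14.2 ± 1.47 CPM in controls against 132.7 ± 31.3 CPM in p63KO. Cdkn1c, the CDK inhibitor p57, rose by 0.72 (SE 0.07) on the log2 scale.

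More death and survival genes fell than rose. Of 22 tested of 24, 1 rose, 9 fell and 12 did not pass, with a median log2 fold change of -0.27. The shares were 40.9% lower and 4.5% higher, beside 14.3% and 15.3% of all tested genes. The number that fell was 5 without p63KO replicate 3 and between 5 and 6 with any library left out. Perp, a desmosomal membrane protein known as a target of p53 and of p63, was 504.8, 499.1 and 470.1 CPM in the controls against 33.9, 24.7 and 34.7 CPM in p63KO. It fell by 3.98 (SE 0.12) on the log2 scale, the most in this list. Siva1 was 129.0 ± 20.6 CPM in controls against 56.6 ± 4.65 CPM in p63KO and Ndrg1, a differentiation and stress gene, was 32.5 ± 8.29 CPM in controls against 6.26 ± 1.38 CPM in p63KO, with log2 fold changes of -1.19 (SE 0.12) and -2.37 (SE 0.22). Bax, the mitochondrial pore protein, was the member that rose, at 61.0, 64.3 and 61.0 CPM in the controls against 69.9, 82.8 and 74.9 CPM in p63KO, by 0.29 (SE 0.08) on the log2 scale. It did not pass without control replicate 1 or control replicate 3. Bbc3 (Puma) was 9.15 ± 0.800 CPM in controls against 12.2 ± 0.697 CPM in p63KO and did not pass (edgeR adjusted p = 0.0520), and Pmaip1 (Noxa) fell by 0.70 (SE 0.20) but passed in 2 of the 6 fits that left out 1 library. Of 13 tested DNA repair targets none rose, Ercc5 and Brca2 fell, with log2 fold changes of -0.58 (SE 0.07) and -0.42 (SE 0.11), and the median was -0.25. The share that fell, 15.4%, was near the 14.3% of all tested genes, and Rrm2b rose in the fit without control replicate 1, by 0.50 (SE 0.15) on the log2 scale (edgeR adjusted p = 0.0396).

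Most genes reported as p63 targets in basal epithelium fell. Of 32 tested of 35, 3 rose, 24 fell and 5 did not pass, and the median log2 fold change was -1.12. The shares were 75.0% lower and 9.4% higher, beside 14.3% and 15.3% of all tested genes. The count of 24 lay between 24 and 26 with any library left out. Col17a1, the transmembrane collagen of hemidesmosomes, was 354.8, 300.6 and 235.4 CPM in the controls against 2.18, 2.29 and 0.371 CPM in p63KO, a log2 fold change of -7.47 (SE 0.31). Krt5, the basal keratin whose promoter is shown, was 202.7, 199.8 and 298.2 CPM in the controls against 7.97, 10.9 and 2.01 CPM in p63KO and changed by -5.05 (SE 0.37). Trim29, a basal cell gene, was 487.8 ± 48.8 CPM in controls against 14.0 ± 1.93 CPM in p63KO. No p63KO library reached any control library for these 3 genes, and p63KO replicate 3 was the lowest for each of them. Against the list, Chd7, a chromatin remodeller, was 139.2 ± 3.59 CPM in controls against 279.4 ± 7.29 CPM in p63KO, Cbs, an enzyme of homocysteine metabolism, was 3.28 ± 0.807 CPM in controls against 14.9 ± 2.77 CPM in p63KO, and Fras1, a basement membrane gene, rose by 0.42 (SE 0.06) on the log2 scale. Sfn and Perp stand in this list as well as in those of p53.

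Genes linked to p73 in ciliated and neural cells were divided. Of 16 tested of 20, 6 rose, 5 fell and 5 did not pass, with a median log2 fold change of -0.09. The shares were 37.5% higher and 31.2% lower, beside 15.3% and 14.3% of all tested genes. Gm606, the older name of Gmnc, a regulator of multiciliated cells, was 0.913, 0.817 and 1.001 CPM in the controls against 2.77, 3.74 and 4.16 CPM in p63KO, a low level that rose by 1.96 (SE 0.28). Rfx3, a ciliary transcription factor, was 80.1, 75.2 and 80.4 CPM in the controls against 110.4, 117.7 and 122.2 CPM in p63KO and rose by 0.57 (SE 0.07). Its relative Rfx2 went the other way, at 21.0 ± 2.83 CPM in controls against 16.0 ± 0.882 CPM in p63KO. Rfx2 fell by 0.40 (SE 0.13) on the log2 scale, but passed in 1 of the 6 fits that left out 1 library. Foxj1, the regulator of motile cilia, was 8.39 ± 3.38 CPM in controls against 4.56 ± 0.973 CPM in p63KO and did not pass (edgeR adjusted p = 0.0585), though without control replicate 2 it fell by 1.12 (SE 0.26) on the log2 scale and passed (edgeR adjusted p = 0.0139). Jag2, a Notch ligand that is also listed for p63, was 341.8 ± 68.0 CPM in controls against 43.5 ± 3.61 CPM in p63KO, and the receptor kinase gene Axl was 263.8 ± 17.1 CPM in controls against 37.8 ± 3.73 CPM in p63KO. Ffar2 had 0, 0 and 1 counts in control and 64, 23 and 44 in p63KO. It is 1 of the 6 that rose, and its place in this list as a p73 target is uncertain. Ciliated cell markers moved as given above, and Trp73 itself did not pass. Of 11 genes of Cajal-Retzius neurons only 5 were tested, of which Cxcr4, Ebf3 and A930038C07Rik (Ndnf) rose and 2 did not pass, and only Cxcr4 rose in the fits without p63KO replicate 1 or p63KO replicate 3. Reln, the defining product of those neurons, was 0.698, 0.868 and 3.12 CPM in the controls against 1.12, 0.831 and 0.817 CPM in p63KO and did not pass.

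The half-site stood in the promoter window of 6 of 19 cell cycle targets with a RefSeq window (31.6%), 6 of 19 death targets (31.6%), 1 of 8 repair targets (12.5%), 2 of 19 p63 targets (10.5%, Col17a1 and Krt5) and 0 of 15 p73 targets, beside 9.55% of all symbols. Of these 15 genes with a match 2 rose (Cdkn1a and Bax), 5 fell (Sesn1, Ckap2, Siva1, Col17a1 and Krt5) and 8 did not pass. The shares were 13.3% higher and 33.3% lower, beside 15.3% and 14.3% of all tested genes. These genes were all taken from the target lists. In those lists 21.7% (cell cycle), 40.9% (death), 15.4% (repair) and 75.0% (p63) of tested genes fell. The comparison with all tested genes therefore cannot show what a half-site adds. Both rises, and the fall of Ckap2, lost their call when some single libraries were left out.

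**Figure D5:**
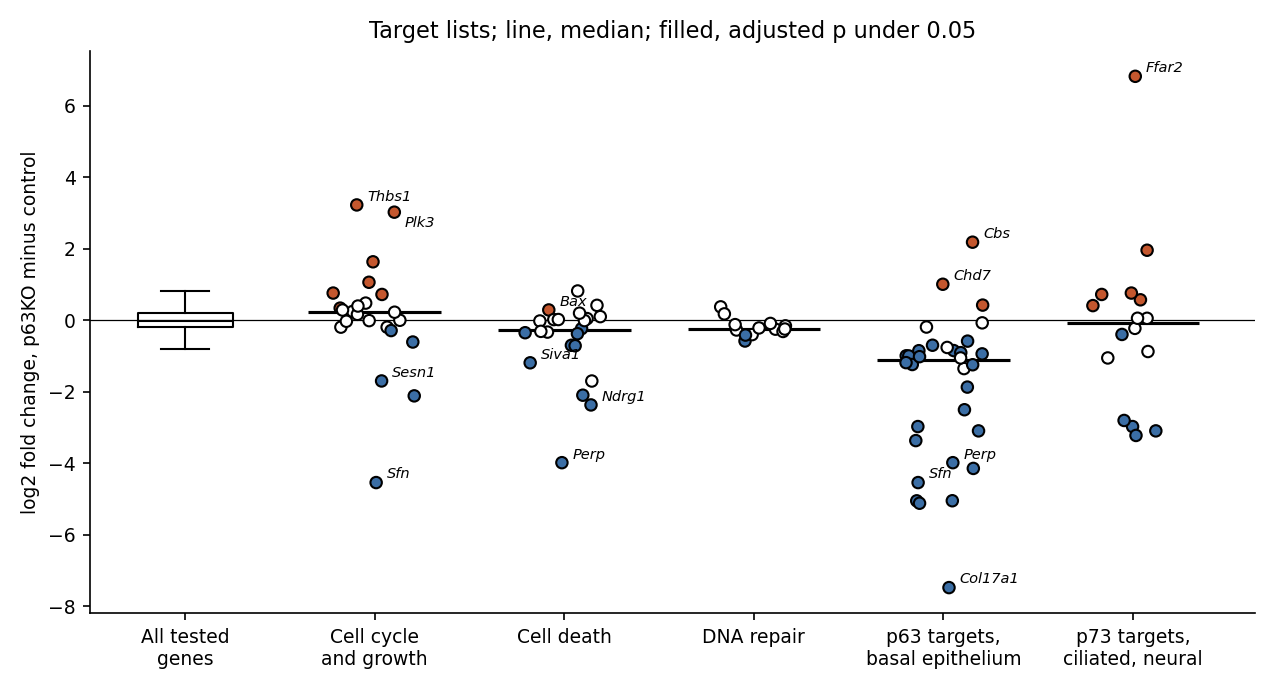
Log2 fold change, p63KO minus control, of each tested gene in 5 target lists beside all tested genes (box, quartiles and median; whiskers, 1.5 times the interquartile range). Points are genes, filled where the edgeR adjusted p is under 0.05, and lines are list medians. The p63 list had a median of -1.12 with 24 of 32 genes lower, and the other medians lay between -0.27 and 0.22. Over all tested genes 14.3% were called lower.

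The genes beside the members on their chromosomes are counted together here, although the members differed in their change. Of 14 tested neighbours of 15 listed, none rose, 3 fell and 11 did not pass, with a median log2 fold change of -0.02. The share that fell was 21.4%, beside 14.3% of all tested genes. The listed genes near Trp63 (Tprg, Leprel1, Cldn1 and Lpp) all had lower means in p63KO, and Cldn1 and Lpp were called. Beside Trp63, Tprg was 1.34, 0.766 and 1.06 CPM in the controls against 0.236, 0.346 and 1.34 CPM in p63KO, a low level in which the groups overlapped and the difference of -0.76 (SE 0.60) did not pass. Without p63KO replicate 3, the highest of its group, the difference was -1.85 and passed. Leprel1 was 2.02 ± 0.635 CPM in controls against 1.41 ± 0.564 CPM in p63KO, and Lpp, a focal adhesion gene, fell by 0.39 (SE 0.07). Cldn1, a tight junction gene farther along, was 10.4 ± 1.44 CPM in controls against 3.70 ± 0.831 CPM in p63KO and fell by 1.48 (SE 0.21) on the log2 scale. Beside Trp53, Wrap53, whose promoter window overlaps that of Trp53, was 30.7, 28.8 and 31.4 CPM in the controls against 29.6, 30.6 and 29.3 CPM in p63KO. It differed by -0.02 (SE 0.08) on the log2 scale (edgeR adjusted p = 0.882), and its sign was positive without control replicate 3 or when libraries were scaled by upper quartile or by total counts, while Trp53 was lower in every alternative. Reads of Trp53 and Wrap53 cannot be told apart where they overlap, since the strand setting of the counting is not given. Efnb3, Atp1b2, Sat2 and Dnahc2 did not pass, and Shbg had no count. Beside Trp73, Wdr8 (Wrap73), Tprgl, Ccdc27 and 1190007F08Rik (Smim1) did not pass, with log2 differences of -0.01 (SE 0.10), -0.06 (SE 0.06), -0.03 (SE 0.46) and 0.08 (SE 0.14), of which those of Wdr8 and Ccdc27 changed sign with those scalings. Megf6, which lies close to Trp73, was 61.3 ± 11.3 CPM in controls against 22.2 ± 3.91 CPM in p63KO and fell by 1.46 (SE 0.16).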

How the data were processed

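Per the labels' protocols, RNA was isolated with a PicoPure kit, and TruSeq libraries were sequenced in reads of 100 bases. Both single and paired ends are named there, so the layout is not resolved. The values the authors deposited are raw counts, 1 row a gene symbol, with no normalization. The submitters' processing notes name bcl2fastq 1.8.4, TopHat2 2.1.0, DESeq2 and the build mm9. No label or header names the read counter, its annotation or its strand setting.

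Total counts were 16948971 to 20093838 in control and 13335328 to 16506401 in p63KO. Of 18572 genes with a count, 13849 passed filterByExpr (minimum count 10, minimum total 15). Libraries were scaled by TMM and compared with the quasi-likelihood test of edgeR 4.0.16 in R 4.3.3, with Benjamini-Hochberg adjustment over all tested genes. An adjusted p under 0.05 was called changed, and "rose", "fell" and "passed" are used for it. Values are mean ± SD, and SE is that of a log2 fold change. Gene lengths came from GENCODE vM21. No coordinates of the deposited data were used.

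Named genes were the members, the 4 called genes with the lowest p in each direction and the most abundant member of each list, all neighbours, and the 3 genes nearest to each member. Other genes were chosen after their values were seen. The members and lists were chosen with earlier results of these data known, and the lists come from general knowledge of the field and not from a database. Alternatives were DESeq2 1.42.0, limma-voom (limma 3.58.1), 3 other scalings, 2 other filters, the replicate number as a block and each library left out. Other gene lengths, and the list counts with 1 library left out, were chosen after seeing the data. On simulated data for this comparison (13720 genes), edgeR recovered 38.8% of 67 genes changed 1.5-fold, 61.2% of 67 changed 2-fold and 97.0% of 66 changed 4-fold, with 13 false calls. The simulation changed no other genes, while 29.6% of tested genes were called in the data, so recovery in the data may differ.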

Additional observations from a re-analysis of the deposited data

How the results depend on the processing

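Trp63 (-3.14 to -2.96) and Trp53 (-0.34 to -0.27) kept their direction and call in every alternative. Leaving out 1 library, Trp73 ran from -0.70 to 0.089 and the Trp73 to Trp53 log2 ratio difference from -0.41 to 0.42. The log2 fold changes of Wdr8 (-0.097 to 0.091), Ccdc27 (-0.43 to 0.31), Wrap53 (-0.059 to 0.0028), Hbb-y (-0.50 to 2.05) and Nr4a1 (-0.40 to 0.051) also passed through 0. Upper quartile scaling gave Wdr8 0.017, Ccdc27 0.0016 and Wrap53 0.0026, and scaling by total counts alone gave 0.028, 0.012 and 0.013. The cause of these changes of sign was not tested. Over all alternatives for named genes, 19 values lost their call and 14 gained one.

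Called genes numbered 4098, between 4002 and 4087 with DESeq2, limma-voom, other scalings and other filters, and 3150 to 3771 with 1 library left out. Same-numbered libraries had correlations of their deviations of 0.152, 0.248 and 0.028. Each p63KO library correlated best with the control of its own number. For p63KO replicate 3 the values were close (0.028 beside 0.021 with control replicate 1), and control replicate 3 correlated best with p63KO replicate 1 (0.059). The labels name no pairs, so the main fit did not take numbers as pairs. Whether they are pairs is not settled here. With the replicate number as a block, 4778 genes were called, Trp63 changed by -3.08, Trp73 by -0.32 and Trp53 by -0.32. The block also called 2 modifiers higher instead of 1 and 5 DNA repair targets lower instead of 2, with 1 higher instead of 0. Death targets that rose numbered 2 instead of 1 with DESeq2, limma-voom, upper quartile or total count scaling, the filter of 1 CPM, the block and without p63KO replicate 1. Among neighbours, 1 rose instead of 0 with upper quartile or total count scaling or the block. The few counts of Trp73 limit its precision.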

Other observations

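The 2 ribosomal protein genes of the partner list, whose products bind Mdm2, had low levels for genes of their kind. Rpl5 was 7.55 ± 0.98 CPM in controls against 7.38 ± 0.37 CPM in p63KO, and Rpl11 was 7.20 ± 0.71 CPM and 8.03 ± 0.52 CPM (SD, n = 3 each). Of 79 cytosolic ribosomal protein symbols with a row, 23 had a mean under 10 CPM, and the highest stood at 1277 CPM, beside a median of 31.7 CPM over all tested genes. Genes of this kind have near-identical copies elsewhere in the genome, so the values of Rpl5 and Rpl11 are uncertain.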
